A study of Mus musculus with 2 samples.

Results

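The genes described here are those of the Popeye, caveolin and cavin families, 10 genes chosen by their GENCODE M21 gene names: Bves, Popdc2 and Popdc3; Cav1, Cav2 and Cav3; and Cavin1, Cavin2, Cavin3 and Cavin4. All 10 were found among the 42462 annotated genes of the tables, and they had 28 of the 103639 transcripts. The samples were 2 total RNA libraries of whole heart from healthy B6NCrl mouse embryos at embryonic day 16.5, male and female together, numbered as biological replicates 1 and 2 of a single group. No embryo carried a stated mutation or treatment. Replicate 2 pooled the hearts of 41 embryos, and the number in replicate 1 is not given. Both libraries carry the same donor identifier. The input was 10 ng of RNA above 200 nt in length plus spike-in RNA, and the libraries held 37160624 (replicate 1) and 40360242 (replicate 2) estimated read counts.

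Caveolae are small flask-shaped pits of the plasma membrane. Caveolins are hairpin proteins inserted in the inner leaflet, cavins are cytosolic coat proteins that assemble on them, and in striated muscle caveolae lie along the sarcolemma and take part in building T-tubules. Cav1 and Cav2 are known from endothelium, fibroblasts, smooth muscle and fat, while Cav3 and Cavin4 are the forms of striated muscle. Popeye proteins span the membrane, bind cAMP through a Popeye domain and are most abundant in heart and skeletal muscle. Mice lacking Bves or Popdc2 develop slowing of the sinus node under stress, and the Bves protein is known to bind caveolin-3.

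The genes of each family are paralogs whose coding sequences have diverged enough for reads to be told apart. For each family, 1 stretch of 60 coding bases (20 whole codons) is shown, read 5′ to 3′ from the GENCODE M21 transcripts on mm10. It had the most positions identical in every member among the whole-codon stretches compared. Capitals mark bases identical in the whole family, and lower case marks bases that differ in at least 1 member. In the Popeye stretch 34 of 60 bases were identical, and it holds the codons of the conserved motif that binds the phosphate of cAMP.
Bves (chr10:45347804-45347863, plus strand): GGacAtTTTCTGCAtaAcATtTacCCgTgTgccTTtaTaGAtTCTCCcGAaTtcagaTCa
Popdc2 (chr16:38369503-38369562, plus strand): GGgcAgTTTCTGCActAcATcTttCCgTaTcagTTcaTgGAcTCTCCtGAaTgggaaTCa
Popdc3 (chr10:45316450-45316509, plus strand): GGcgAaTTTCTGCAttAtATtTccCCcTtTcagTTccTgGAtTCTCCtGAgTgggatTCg

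In the caveolin stretch 34 of 60 bases were identical as well. It holds the codons of the caveolin signature motif, and in all 3 genes an intron divides it.
Cav1 (chr6:17308040-17339166, plus strand): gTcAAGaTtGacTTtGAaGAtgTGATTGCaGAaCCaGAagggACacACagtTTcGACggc
Cav2 (chr6:17281505-17281948, plus strand): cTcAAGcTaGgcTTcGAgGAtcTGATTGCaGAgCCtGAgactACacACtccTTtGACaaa
Cav3 (chr6:112459920-112472190, plus strand): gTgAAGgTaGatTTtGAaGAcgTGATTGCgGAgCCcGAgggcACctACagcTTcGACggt

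The stretch chosen in the same way for the 4 cavins had 24 of 60 bases identical.
Cavin1 (chr11:100970107-100970166, minus strand): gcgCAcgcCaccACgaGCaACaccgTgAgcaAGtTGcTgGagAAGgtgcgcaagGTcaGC
Cavin2 (chr1:51289692-51289751, plus strand): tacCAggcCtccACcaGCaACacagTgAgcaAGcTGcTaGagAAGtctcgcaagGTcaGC
Cavin3 (chr7:105481893-105481952, minus strand): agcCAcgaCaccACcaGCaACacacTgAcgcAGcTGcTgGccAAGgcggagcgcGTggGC
Cavin4 (chr4:48663853-48663912, plus strand): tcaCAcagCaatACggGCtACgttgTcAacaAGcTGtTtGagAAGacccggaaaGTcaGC

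Across whole coding sequences, Cav1 and Cav3 were the closest pair within a family, with 71.8% of aligned bases identical, and Cav2 was at 62.0% with Cav1 and 58.1% with Cav3. Popdc2 and Popdc3 shared 63.8%, Bves shared 58.5% with Popdc2 and 59.2% with Popdc3, and the cavin pairs ranged from 58.3% to 67.0%. No word of 100 bases in the leading transcript of any of the 10 genes occurred on the same strand in a transcript of another gene. In 9 of the 10 genes the estimated counts were whole numbers in both libraries (within 0.005), so no read was divided with another gene there. The exception was Popdc3, at 1818.9 and 1901.8 counts in replicates 1 and 2. Its first exon overlaps the antisense gene Gm15934 (51.11 and 50.19 counts), with which 21 of its 1754 words of that length are shared on the opposite strand. Cavin3 overlaps Gm45667 on the opposite strand over 17.6% of its words. Gm45667 had no row among the measured genes, and whether reads were assigned by strand is not given in the sources used here.

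Both libraries had all 10 genes at 1 TPM or above, a level reached by 33.2% of annotated genes and 59.1% of protein-coding genes. TPM is a relative transcript abundance corrected for transcript length and scaled to the same total in each library, so levels may be compared between genes. Together the 10 genes held 1744 TPM in replicate 1 and 1692 TPM in replicate 2, divided into 571.6 ± 21.4 TPM for the Popeye genes, 459 ± 10.3 for the caveolins and 687 ± 25.5 for the cavins (mean ± SD, n = 2, as for the values below). Summed cavin TPM exceeded summed caveolin TPM by 1.56-fold in replicate 1 and 1.44-fold in replicate 2. Estimated counts behind the levels ran from 906 (Cavin4, replicate 1) to 34801 (Cavin1, replicate 1), so that counting error was small.

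**Figure D1:**
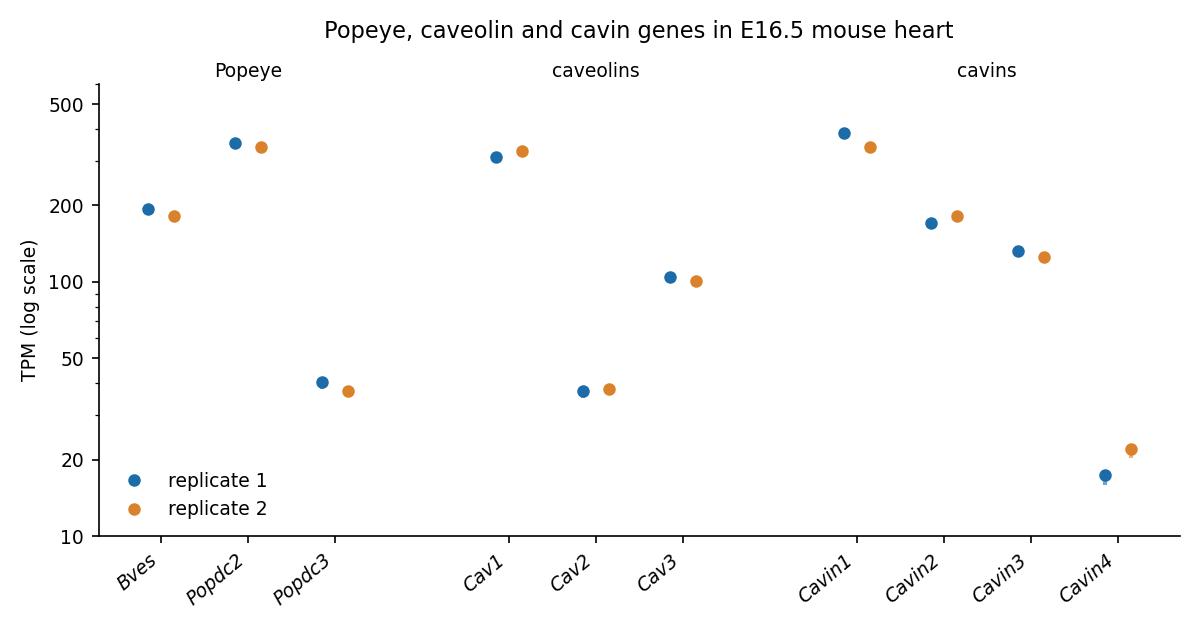
TPM on a log axis for the 10 genes in replicate 1 (blue) and replicate 2 (orange), with the authors' credibility interval of each value as a vertical line, mostly hidden by its point. Cavin1, Popdc2 and Cav1 lie above 300 TPM, Popdc3 and Cav2 near 40 TPM and Cavin4 near 20 TPM, with the libraries close together for every gene.

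The order of mean levels was Cavin1 (362 TPM ± 31.4), Popdc2 (345 ± 9.71), Cav1 (319 ± 12.9), Bves (188 ± 9.46), Cavin2 (177 ± 7.67), Cavin3 (129 ± 4.94), Cav3 (103 ± 2.98), Popdc3 (38.9 ± 2.20), Cav2 (37.45 ± 0.453) and Cavin4 (19.6 ± 3.23). Neighbours in this order were said to differ beyond the spread where both libraries had the same direction and the mean log2 ratio was at least 2 SD from 0. By that rule 5 of the 9 neighbouring pairs differed. Cavin1, Popdc2 and Cav1 could not be ordered among themselves by neighbours, with mean log2 ratios of 0.07 ± 0.08 for Cavin1 over Popdc2 and 0.11 ± 0.10 for Popdc2 over Cav1. Bves and Cavin2 changed places between the libraries (log2 ratio 0.18 in replicate 1 and -0.01 in replicate 2), as did Popdc3 and Cav2 (0.12 and -0.01). On this rule alone the levels formed steps: 3 genes above 300 TPM, Bves with Cavin2, then Cavin3, then Cav3, then Popdc3 with Cav2, and Cavin4 last. An SD of 2 libraries is itself uncertain, and it does not hold errors of the transcript models. Cavin3 exceeded Cav3 by only 1.25-fold, and the Cavin3 level rests on a model of 1035 nt against 1662 nt in GENCODE M21. Among the 21474 protein-coding genes measured, Cavin1 ranked 331, Popdc2 356 and Cav1 381, and Cavin4 ranked 5610.

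Among the Popeye genes, Popdc2 was highest, Bves intermediate and Popdc3 lowest in both libraries. Popdc2 (chr16:38362209-38378216, plus strand) encodes the Popeye protein known from the sinus and atrioventricular nodes as well as working myocardium, and it had 352 TPM in replicate 1 and 338 in replicate 2. Bves (chr10:45335772-45372479, plus strand), also called Popdc1 and known for roles in cell adhesion and membrane repair besides cAMP binding, had 194 and 181 TPM. Popdc3 (chr10:45178098-45318452, plus strand), best known from skeletal muscle, had 40.5 and 37.4 TPM. The levels of the 3 genes did not overlap between genes, and each gene was slightly higher in replicate 1.

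Popdc2 exceeded Bves by 1.84-fold (log2 ratio 0.88 ± 0.03) and Popdc3 by 8.85-fold (3.15 ± 0.04), and Bves exceeded Popdc3 by 4.81-fold (2.27 ± 0.01). As shares of the family's summed TPM, Popdc2 held 60.4% ± 0.559, Bves 32.8% ± 0.429 and Popdc3 6.81% ± 0.130. Bves and Popdc3 are neighbours on the same strand of chromosome 10, with 17319 bp between them, and the pair differed in level by the 4.81-fold given above. The deposited model of Bves is 1607 nt long against 4368 nt in GENCODE M21. Its TPM rests on the shorter model for both counts and length.

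**Figure D2:**
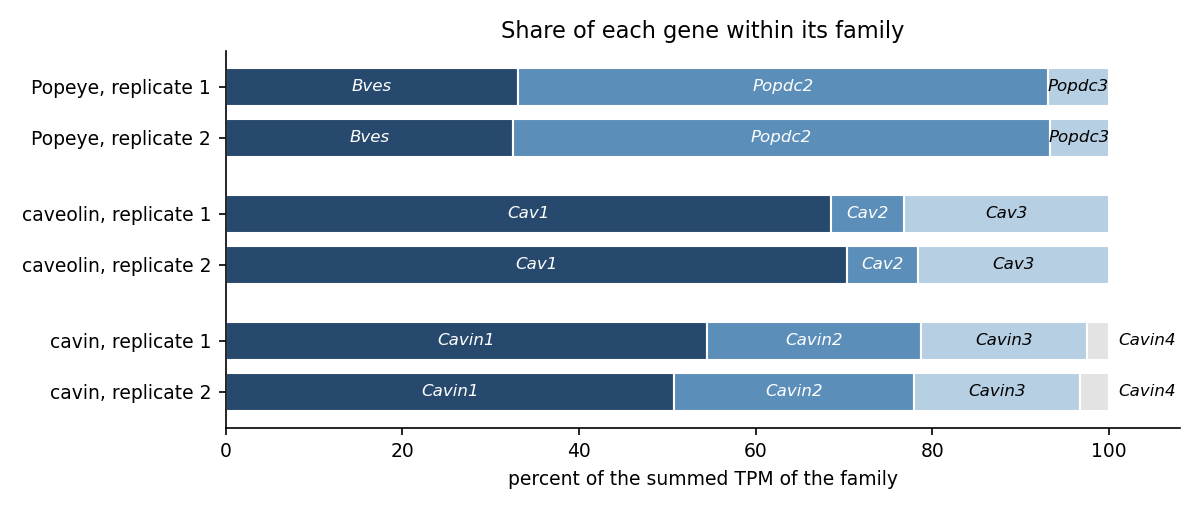
Horizontal bars give the percent of each family's summed TPM that lay on each of its genes, with replicate 1 above replicate 2 for every family. Popdc2 takes 59.98% and 60.8%, Cav1 68.6% and 70.3%, and Cavin1 54.5% and 50.8% in replicates 1 and 2, and Cavin4 is the thin segment at the end of its bars.

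Among the caveolins, Cav1 led in both libraries, ahead of the muscle form Cav3. Cav1 (chr6:17306335-17341452, plus strand), the caveolin that forms caveolae outside striated muscle, had 309.7 TPM in replicate 1 and 328 in replicate 2. Cav3 (chr6:112459505-112472872, plus strand), which forms caveolae in cardiac and skeletal muscle cells, had 104.9 and 100.7 TPM. Cav2 (chr6:17281185-17289115, plus strand), which needs Cav1 to reach the plasma membrane, had 37.1 and 37.8 TPM. The 3 levels were well apart in each library.

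Cav1 exceeded Cav3 by 3.10-fold (log2 ratio 1.63 ± 0.10) and Cav2 by 8.49-fold (3.09 ± 0.04), and Cav3 exceeded Cav2 by 2.74-fold (1.45 ± 0.06). Cav1 held 69.4% ± 1.24 of caveolin TPM, Cav3 22.4% ± 1.15 and Cav2 8.16% ± 0.0850. Cav2 and Cav1 lie next to each other, 17219 bp apart on the same strand of chromosome 6, and both sit inside the span of the antisense gene Gm15581, which had 2.54 counts in replicate 1 and 0 in replicate 2. In whole tissue, fewer cells of a type and less RNA per cell cannot be told apart, so these ratios do not give the caveolin makeup of any one cell type.

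Among the cavins, Cavin1 was highest and the muscle form Cavin4 lowest. Cavin1 (chr11:100956733-100970887, minus strand), also called PTRF and required for caveolae to form, had 384 TPM in replicate 1 and 339.9 in replicate 2. Cavin2 (chr1:51289126-51302960, plus strand), also called SDPR and known for shaping caveolar membrane, had 171 and 182 TPM. Cavin3 (chr7:105480083-105482300, minus strand), also called PRKCDBP and known for its part in caveolar signalling and trafficking, had 132.5 and 126 TPM. Cavin4 (chr4:48663514-48673502, plus strand), also called MURC, which lies along the sarcolemma and T-tubules of muscle cells, had 17.35 and 21.9 TPM. Cavin1, Cavin2, Cavin3 and Cavin4 kept this order in both libraries with no overlap of levels.

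Cavin1 exceeded Cavin2 by 2.05-fold (log2 ratio 1.03 ± 0.19), Cavin3 by 2.80-fold (1.49 ± 0.07) and Cavin4 by 18.4-fold (4.21 ± 0.36). Cavin2 exceeded Cavin3 by 1.37-fold (0.45 ± 0.12) and Cavin4 by 9.01-fold, and Cavin3 exceeded Cavin4 by 6.58-fold. Cavin1 held 52.6% ± 2.62 of cavin TPM, Cavin2 25.7% ± 2.07, Cavin3 18.8% ± 0.0238 and Cavin4 2.87% ± 0.576. The deposited Cavin3 model is 1035 nt long against 1662 nt in GENCODE M21, so its TPM too rests on a shorter model.

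The forms of striated muscle were not at matched levels. Cav3 exceeded Cavin4 by 6.02-fold in replicate 1 and 4.58-fold in replicate 2 (mean log2 ratio 2.39 ± 0.28). The widely expressed forms were closer to each other: replicate 1 gave 0.31 and replicate 2 gave 0.05 as the log2 ratio of Cavin1 over Cav1, and the mean of 0.18 ± 0.18 was no larger than its SD. Of the 14 pairs compared, this was the only one that did not differ beyond the spread, and all 12 pairs within families did. In each of the other 13 the authors' credibility intervals of the genes were separate in both libraries. Flipping the signs of 2 values in an exact two-sided permutation test gives 0.5 as its smallest p, and ratios are therefore given without p-values.

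The annotated starts of Cav1 were divided into an upstream and a downstream group, 625 bp apart. Most of its estimated TPM was assigned to transcripts of the upstream group. The 6 transcripts that begin between 17306335 and 17306423 on chromosome 6 held 83.5% of Cav1 TPM in replicate 1 and 84.1% in replicate 2. The 4 that begin between 17307048 and 17307723 held 16.5% and 15.9%. The upstream starts lay within 88 bp, but the downstream starts were spread over 675 bp, more than the gap between the groups. The leading transcripts of the groups were also the leading pair overall: Cav1-201 had 242 and 255 TPM, and Cav1-202 had 47.5 and 47.4 TPM. Their shares of the gene, 78.0% ± 0.184 and 14.9% ± 0.631, were nearly the same in both libraries. Cav1-201 encodes the full-length alpha form of 178 codons. Cav1-202 encodes the beta form of 147 codons, which lacks the first 31 codons and begins at codon 32 of the longer form. The start of the Cav1-201 coding sequence (chr6:17306450-17307958, plus strand, joined over the first intron) is shown with the start codons of the alpha and beta forms in capitals.
Cav1-201: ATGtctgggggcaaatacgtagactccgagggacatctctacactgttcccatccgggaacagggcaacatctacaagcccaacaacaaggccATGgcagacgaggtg

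The promoter windows of these starts, 250 bases before to 50 after each, are shown for the letters they hold. They are from RefSeq on GRCm38.p6, which is the mm10 assembly, plus strand. Capitals mark matches on either strand to a TATA box (letters TATAAA), to a CCAAT box, searched by the letters of its name, or to a GC box (letters GGGCGG). The 3 matches in the upstream window do not overlap.
Upstream start (chr6:17306085-17306384): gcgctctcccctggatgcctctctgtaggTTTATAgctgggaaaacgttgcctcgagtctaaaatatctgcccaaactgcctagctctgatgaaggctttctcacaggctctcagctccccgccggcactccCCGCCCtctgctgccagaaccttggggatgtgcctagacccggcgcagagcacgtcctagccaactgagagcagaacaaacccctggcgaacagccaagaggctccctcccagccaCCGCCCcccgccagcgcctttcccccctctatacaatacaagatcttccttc
Downstream start (chr6:17307390-17307689): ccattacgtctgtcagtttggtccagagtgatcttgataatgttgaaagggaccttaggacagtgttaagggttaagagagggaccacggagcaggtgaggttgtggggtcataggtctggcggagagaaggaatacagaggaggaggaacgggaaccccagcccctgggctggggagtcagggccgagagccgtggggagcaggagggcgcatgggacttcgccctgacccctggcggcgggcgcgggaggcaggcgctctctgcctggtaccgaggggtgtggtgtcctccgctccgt

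The upstream window held 1 TATA box match and 2 GC box matches but no CCAAT box match, and the downstream window held no match to any of the 3. Of 32851 promoter windows of the same length, 13.6% held the TATA box letters, 37.4% the CCAAT box and 35.7% the GC box. GC content was 59.3% upstream and 62.3% downstream, against a median of 52.7% over all windows. The TATA box match lay near the far end of the upstream window, away from the start. Such matches describe the letters only, and their positions were not tested. Cav1-201 and Cav1-202 end in a long last exon that they largely share, and reads from shared exons were divided between them by the authors' estimate. The intervals, 228 to 245 and 241 to 258 TPM for Cav1-201 and 39.9 to 53.4 and 40.3 to 55.0 TPM for Cav1-202, include that step. The last exon ends at 17341324 in Cav1-201 and at 17341452 in Cav1-202. Cav1-202 begins at 17307640, within the first intron of Cav1-201. The split between these transcripts therefore does not rest on their starts alone, and promoter use was not tested.

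**Figure D3:**
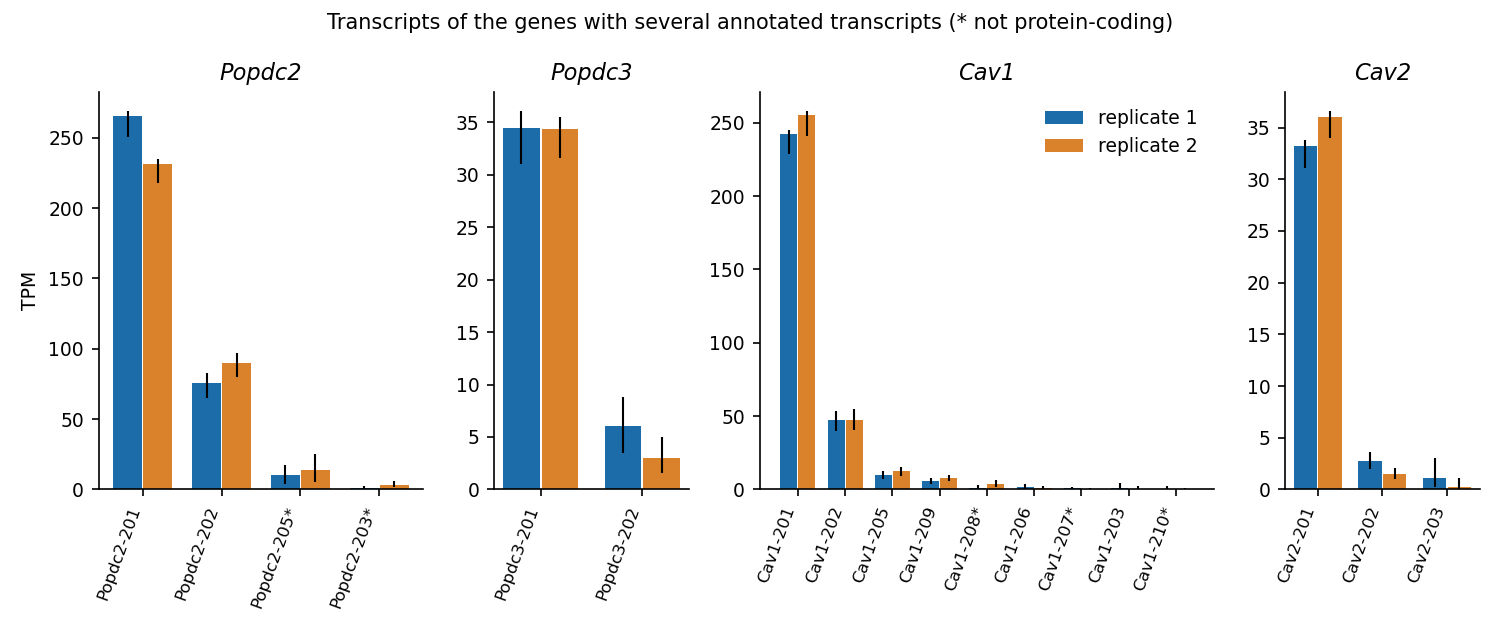
Bars give TPM of each transcript listed above 0 in either library for Popdc2, Popdc3, Cav1 and Cav2, in replicate 1 (blue) and replicate 2 (orange), with the authors' credibility intervals as black lines and an asterisk on transcripts not annotated as protein-coding. A single transcript leads each gene, and Popdc2-202 and Cav1-202 are the only others above 40 TPM.

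Popdc2 had a pair of coding transcripts at substantial levels, which differ at the end of the protein. Popdc2-201 had 265 TPM in replicate 1 and 231 in replicate 2, or 75.4% and 68.4% of the gene, and its credibility intervals in the libraries (251 to 269 and 218 to 235 TPM) did not overlap. Popdc2-202 had 75.7 and 89.8 TPM, or 21.5% and 26.6%, with intervals that overlapped (64.8 to 82.6 and 80.1 to 97.3 TPM). The share of Popdc2-201 was thus higher in replicate 1 and that of Popdc2-202 higher in replicate 2. The third exon of Popdc2-201 runs to 38374377 on chromosome 16 and holds the stop codon, whereas that of Popdc2-202 ends at 38374236 and is spliced to the exon that begins at 38377655. The coding sequences, 371 codons in Popdc2-201 and 367 in Popdc2-202, first differ at coding base 1019. The sequence around that point is shown in capitals from that base on.
Popdc2-201 (chr16:38374207-38374281): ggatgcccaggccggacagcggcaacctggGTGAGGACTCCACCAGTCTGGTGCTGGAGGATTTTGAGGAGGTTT
Popdc2-202 (chr16:38374207-38377699, joined over the intron): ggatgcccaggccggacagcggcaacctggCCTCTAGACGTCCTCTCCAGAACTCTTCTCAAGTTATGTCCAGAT

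Transcripts not annotated as protein-coding, among them 1 marked for nonsense-mediated decay in Cav1, held 4.04% ± 1.39 of Popdc2 TPM and 0.938% ± 0.463 of Cav1 TPM. In Popdc3, the full-length Popdc3-201 (873 coding bases) stood at 34.4 TPM in both libraries, and Popdc3-202, in which exon 3 is 57 nt long against 109 nt and which has 513 coding bases, had 6.05 TPM in replicate 1 and 2.98 in replicate 2. The intervals of Popdc3-202 overlapped (3.51 to 8.84 and 1.52 to 4.99 TPM). Cav2-201 held 89.5% of Cav2 TPM in replicate 1 and 95.4% in replicate 2, and Cavin1-201 held 99.9% of Cavin1 TPM in both. Bves, Cav3, Cavin2, Cavin3 and Cavin4 have 1 transcript each in the tables, so no isoform balance could be measured for them. Popdc2-204, Popdc3-203 and Cav1-204 were listed at 0 TPM in both libraries.

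Between libraries, none of the 10 genes was past 1.5-fold, against 12.5% of all genes averaging 1 TPM or more (4.16% higher in replicate 1 and 8.32% higher in replicate 2) and 7.38% of protein-coding ones. Log2 ratios are of TPM + 0.1, replicate 1 over replicate 2. They ran from -0.34 for Cavin4 to 0.18 for Cavin1, with 6 genes higher in replicate 1 and 4 in replicate 2. The median size of the ratio was 0.09 for the 10 genes, 0.16 over all genes and 0.14 over protein-coding genes. Each gene kept its direction under every scaling tried, but some ratios came close to no difference. With TPM rescaled to annotated genes, Popdc2 was at 0.005 and Cav3 at 0.007. Cavin1 (1.13-fold higher in replicate 1), Bves, Cav1, Cavin2 and Cavin4 had credibility intervals that did not overlap between the libraries. These 5 of 10 stand beside 30.1% of all genes averaging 1 TPM or more, and the intervals narrow as counts grow, so the shares are not matched for depth. Those intervals hold counting and assignment error only, and for Cavin1 and Cavin2 the TPM lay just above its own interval, which holds the deposited posterior mean (376 and 333 TPM for Cavin1). Separate intervals show that the libraries differed, not that the pools would differ again.

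**Figure D4:**
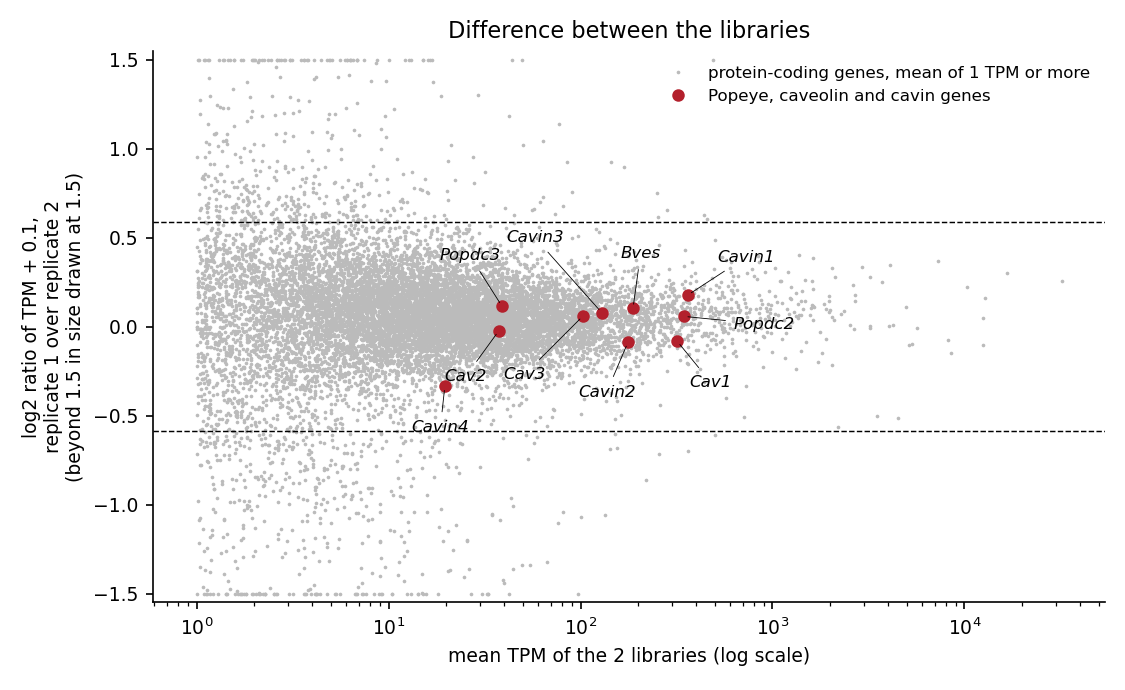
Each point is a protein-coding gene averaging 1 TPM or more, placed by its mean TPM (log axis) and its log2 ratio of TPM + 0.1, replicate 1 over replicate 2, with the 10 genes in red and dashed lines at 1.5-fold. All 10 lie between the lines, and Cavin4 at -0.34 is the farthest from 0.

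Cavin4 was the gene whose level differed most, 1.26-fold lower in replicate 1. Markers of skeletal muscle, where Cavin4, Cav3 and Popdc3 are also expressed, summed to 29.4 TPM in replicate 1 and 60.2 in replicate 2 over the 10 genes of the list. Of these, 7 were above 1 TPM in both libraries, against 59.1% of protein-coding genes, led by fast troponin I, Tnni2 (10.9 and 20.98 TPM). The log2 ratios of Cav3 and Popdc3 were 0.06 and 0.12, and whole tissue does not separate the cells behind these levels. The part of skeletal muscle cells in the Cavin4 difference was not tested. The gene just upstream of Cavin4 on its strand, Tmeff1, ends 382 bp before it and had 19.6 and 6.67 TPM.

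Lung epithelium markers stood further apart between the libraries, at a summed 963 TPM in replicate 1 and 106 in replicate 2 over 8 genes. Surfactant protein C, Sftpc, gave most of that, at 883 and 96.7 TPM. Cav1, Cavin1, Cavin2 and Cavin3 are also known from lung, and the part of lung tissue in their levels was not tested. Cav1 and Cavin2 were lower in replicate 1 (log2 ratios -0.08 and -0.09) and Cavin1 and Cavin3 higher (0.18 and 0.08). Adipocyte markers were near 0, with 0 of 4 at 1 TPM in both libraries, against 59.1% of protein-coding genes. Lep had 0 counts in both libraries, which allows up to 3 counts in each.

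As for the labelled tissue, all 10 cardiomyocyte genes were above 1 TPM in each library and their median was 1047 TPM, led by Tnnt2 (8225 TPM ± 304), Myl2, Myl7 and Myh7. Marker genes of other cell types that hold caveolae were also detected. For scale, 59.1% of protein-coding genes reached 1 TPM in both libraries. The counts are of genes, and cell types were not separated. All 10 endothelial genes (median 46.6 TPM, led by Eng, Esam, Plvap and Pecam1), all 8 fibroblast genes (298 TPM) and all 8 smooth muscle and pericyte genes (18.7 TPM) were above 1 TPM in both. Plvap, which builds the diaphragm across the neck of endothelial caveolae, had 71.2 TPM in replicate 1 and 82.9 in replicate 2, and was 1 of 2 endothelial genes higher in replicate 2. The other 8 endothelial genes were higher in replicate 1, whereas Cav1 and Cavin2 were lower there, and the part of endothelium in either difference was not tested. Mesothelial genes (6 of 6) and macrophage genes (5 of 5) were also above 1 TPM.

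Genes for accessory proteins of caveolae were detected in the same whole-heart RNA as the coat genes. Of 12 such genes 11 were at 1 TPM or above in each library, against 59.1% of protein-coding genes. The median over the list was 51.0 TPM. Ehd4 (159 TPM in replicate 1 and 125 in replicate 2), a dynamin-like ATPase of the EHD family, and the actin crosslinker filamin A, Flna (147 and 102 TPM), were highest. Dnm2, the widely expressed dynamin, had 58.2 TPM ± 1.04 and Ehd1 had 55.3 ± 3.10. Ehd2, the EHD protein that holds caveolae at the cell surface, and the membrane-curving Pacsin2 and Pacsin3 stood together at 52.0, 51.4 and 50.7 TPM. The brain form Pacsin1 did not reach 1 TPM, at 0.45 and 0.56. Ehd2 and the Pacsin genes were picked for mention after their values were seen. The flotillins, which mark membrane domains other than caveolae, were at 104 TPM ± 4.79 (Flot1) and 90.01 ± 1.22 (Flot2), close to Cav3 and below Cav1.

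Of 10 genes of the sarcolemma and T-tubules linked to caveolin-3, 8 reached 1 TPM in both libraries (median 24.9 TPM), against 59.1% of protein-coding genes. The phosphofructokinase Pfkm, dystroglycan Dag1, the sodium-calcium exchanger Slc8a1 and the junction protein Jph2 led at 122, 114, 68.2 and 33.3 TPM. The genes of the list that did not reach 1 TPM in both libraries were Trim72, known for membrane repair (0.86 TPM in replicate 1 and 0.66 in replicate 2), and the neuronal nitric oxide synthase gene Nos1 (0.05 and 0.18 TPM). Both were picked for mention after their values were seen. Cav3, at 103 TPM, stood between Dag1 and Slc8a1.

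Of 6 genes for proteins reported to bind Popeye proteins, 4 reached 1 TPM in both libraries (median 17.6 TPM). That is near the share of protein-coding genes that did so, 59.1%. Ndrg4, which binds Bves, had 329 TPM in replicate 1 and 297 in replicate 2, below Popdc2 in both, and the vesicle protein Vamp3 had 84.8 and 84.3. The guanine exchange factor gene Arhgef25 and the tight junction gene Tjp1 followed at 18.4 and 16.7 TPM. The potassium channel gene Kcnk2, whose channel TREK-1 is modulated by Popeye proteins, was at 0.77 and 1.13 TPM, under every Popeye gene, and was picked for mention after its values were seen.

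Popeye proteins are among several classes of cAMP-binding protein. Of 12 genes for other cAMP effectors, 8 reached 1 TPM in both libraries, near the 59.1% of protein-coding genes that did so. The regulatory subunit gene Prkar1a of protein kinase A had 379.8 TPM in replicate 1 and 385 in replicate 2, and the catalytic subunit gene Prkaca 234 and 203. Prkacb (41.8 TPM ± 0.537) and the Epac gene Rapgef3 (22.6 ± 2.14) came next. The cAMP-gated channel gene Hcn2 was near the floor (0.01 TPM in replicate 1 and 0.02 in replicate 2, from 1 and 2 counts). On the same TPM scale, Popdc2 (352 and 338 TPM) was below Prkar1a in both libraries, and Bves (194 and 181 TPM) was below Prkaca in both.

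**Figure D5:**
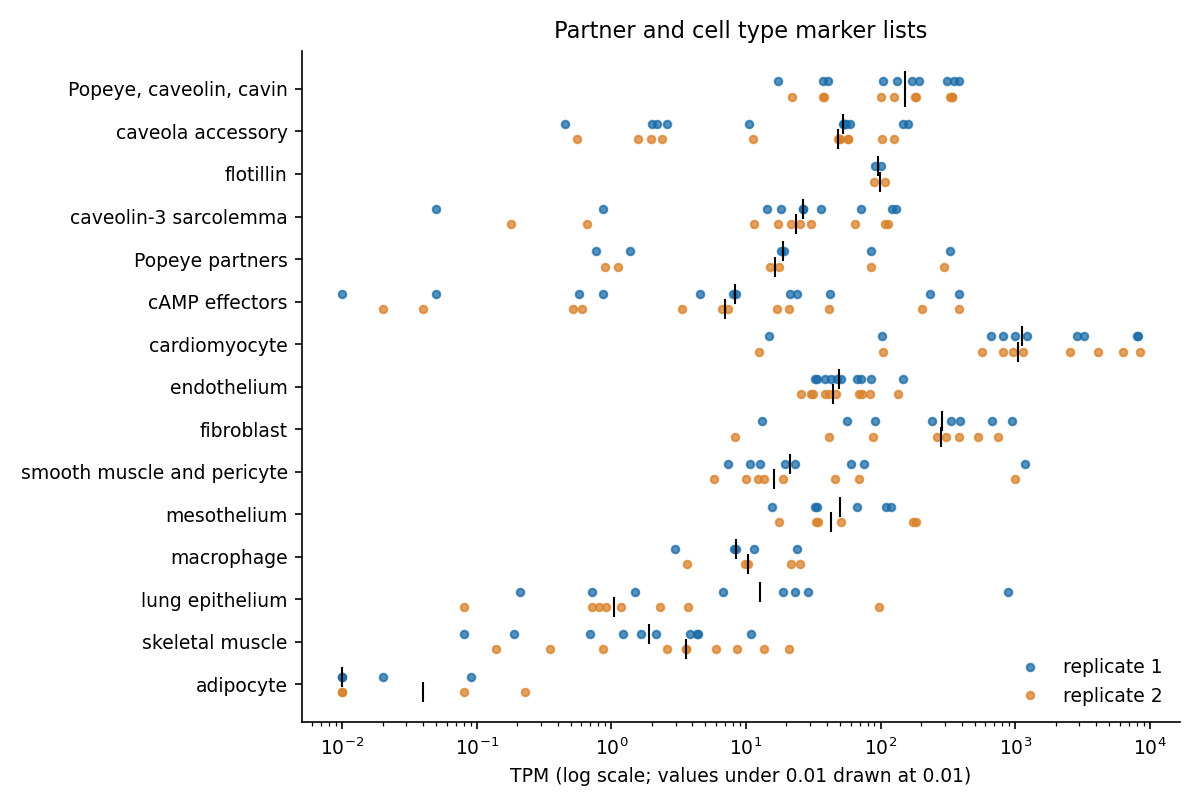
TPM on a log axis for every gene of the partner and marker lists, with replicate 1 (blue) above replicate 2 (orange) in each row, a black tick at each median, and the Popeye, caveolin and cavin genes in the top row. The 10 genes lie between 17.35 and 384 TPM, and lung and skeletal muscle markers show the widest gaps between the libraries.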

How the data were processed

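Total RNA of E16.5 mouse heart was sequenced in 2 libraries of 1 group. The authors quantified each library separately on mm10 with annotation M4, per the notes that came with the deposited files. The deposited tables give estimated counts, which are not normalized, and TPM over all rows, spike-ins included. The authors also deposited FPKM, which is per length and per total counted reads. The authors' percent of each gene's TPM on each transcript and their interval bounds, a score whose level is not stated, are in the deposited tables. Aligner and quantifier: not given in the sources used here. Spike-ins held 1.62% and 3.41% of counts in replicates 1 and 2.

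Names and coordinates came from GENCODE M21 (GRCm38, the same assembly) by identifier without version. Of the members' 28 transcripts, 25 had the same length there. Members and gene lists (14 lists, 111 symbols, all measured) were chosen with earlier results of these data known. Named genes were the 10 members, the top 4 genes of each list by mean TPM, list genes under 0.1 TPM in both libraries, and genes within 20000 bp of a member; others are said to be picked after their values were seen. One gene that the rule would name is not reported here. Ratios used TPM + 0.1. TMM factors came from edgeR 4.0.16 on rounded counts, alignments from Biopython 1.88 and Python 3.11.15. Ratio steps were tested on simulated data. Intervals cover counting and assignment error only, and floors counting error only, since reads carry no molecular identifiers. Nothing in the labels gives separate litters, so the spread may be technical.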

Additional observations from a re-analysis of the deposited data

How the results depend on the processing

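All 10 genes remained at 1 TPM or more with thresholds of 0.5 and 5 TPM, with posterior means, FPKM, TPM rescaled to annotated genes and either library alone, and 0 of 10 were past 1.5-fold with a pseudocount of 1, posterior means or TMM-scaled CPM. None of the 14 pairs compared within and between families changed direction under any alternative tried. The 9 pairs of neighbours in the order of levels were not rerun, and Bves with Cavin2 and Popdc3 with Cav2 changed direction between the libraries. Posterior means moved none of the 14 ratios by more than its SD. Leaving out 1 of 2 libraries cannot move a mean by its SD, so it is no check of stability; without replicate 1 or replicate 2, the ratios ranged from 0.05 (Cavin1 over Cav1) to 4.46 (Cavin1 over Cavin4). Estimated counts with no length correction moved all 14, by construction, since genes of different length are then not on the same scale. The log2 ratios became 1.26 for Popdc2 over Bves, 2.10 for Bves over Popdc3, 3.35 for Popdc2 over Popdc3, 2.99 for Cav1 over Cav2, 2.76 for Cav1 over Cav3, 0.22 for Cav3 over Cav2, 1.23 for Cavin1 over Cavin2, 3.34 for Cavin1 over Cavin3, 5.01 for Cavin1 over Cavin4, 2.11 for Cavin2 over Cavin3, 3.77 for Cavin2 over Cavin4, 1.66 for Cavin3 over Cavin4, 1.52 for Cav3 over Cavin4 and 0.72 for Cavin1 over Cav1. The family shares became 65.9% for Popdc2, 78.5% for Cav1 and 64.3% for Cavin1. The shares of Cav3 and Cavin3, whose transcripts are short, became 11.6% and 6.33%, against 22.4% and 18.8% of TPM. With protein-coding transcripts alone, Popdc2 over Bves became 0.82, Popdc2 over Popdc3 3.09 and the share of Popdc2 59.4%, and with a pseudocount of 1, Bves over Popdc3 became 2.24. Rescaling TPM to annotated genes shifted all ratios between the libraries by -0.05 on the log2 scale. Depth does not limit the gene levels, whose smallest count was 906, but it limits transcripts of a few counts, such as Cav1-203 at 12.58 counts in replicate 1 and 0 in replicate 2. No paired analysis was possible because there is a single group.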
